A study of Canis lupus familiaris with 36 samples.

Results

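The interferon response genes are the genes that cells switch on when interferon reaches their surface, and 44 of them were listed by symbol for the description given here. Probe sets that the platform's annotation pairs with these symbols were sought among the 43035 probe sets of an Affymetrix canine expression array. Of the 44 genes, 37 had a probe set, and IFIT1, IFIT3, DDX58, OASL, SAMD9, BST2 and SP110 had none and were not analysed here. A log2 intensity of 4 was taken as the minimum for a usable signal, and a gene was tested when at least 4 dogs reached it. This left 32 of the 37 genes, out of 7500 genes tested in all. The other 5 stayed below that filter and are not used in any test: IFIT2 reached 4.10 in TZL replicate 4, and the highest values of IFI6, TRIM25, OAS3 and RSAD2 were 3.99, 3.66, 3.33 and 3.22.

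Interferons are signalling proteins that warn tissue of viral infection and steer immune cells. Type I interferons and gamma interferon bind separate receptors, and both act through Janus kinases and STAT proteins. STAT2 and IRF9 belong to the complex that turns on most type I response genes, whereas IRF1 is among the factors that gamma interferon induces. In tumours that arise from lymphocytes, these genes can be active in the malignant cells, in the other cells of the tissue, or in both.

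The study profiled tumour tissue from 35 dogs with lymphoma on 36 arrays, and it compared histological subtypes, B and T cell phenotypes and grades. The labels give 10 dogs with diffuse large B-cell lymphoma (DLBCL, high grade, aged 4 to 14 years), 5 with marginal zone lymphoma (MZL, low grade, 4 to 10 years) and 2 with the B cell subtype called BL (high grade, 2 and 5 years). On the T cell side they give 9 dogs with T-zone lymphoma (TZL, low grade, 7 to 11 years), 4 with peripheral T-cell lymphoma (PTCL, 6 to 14 years) and 4 with the subtype called LBT (high grade, 3 to 10 years). Of the PTCL dogs, 3 were high grade and PTCL replicate 4 was intermediate. A single dog labelled NBNT (low grade, 8 years) belonged to neither phenotype and entered no test. No treatment or genotype is given for any group, and Golden Retrievers made up from 1 of 4 dogs in PTCL to 8 of 9 in TZL. Among the subtypes, males made up from 1 of 5 dogs in MZL and 1 of 4 in LBT to 6 of 9 in TZL. Per the labels, the tumours were dissociated mechanically and filtered before RNA was taken, so that each array holds the RNA of all cells of a tumour that passed the filter. A level in such bulk tissue cannot tell apart fewer cells of a type and less RNA per cell.

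Each dog gave 1 array, except a DLBCL dog whose 2 arrays (replicates 6 and 7) were averaged; the median member differed by 0.19 (log2) between these arrays and the median gene by 0.21. T cell marker genes averaged 10.24 to 11.03 (log2 intensity) in the 3 T cell subtypes and 6.43 to 7.16 in the 3 B cell subtypes. B cell marker genes averaged 8.04 to 8.78 in the 3 B cell subtypes and 3.98 to 6.31 in the 3 T cell subtypes. A set of 6 arrays (3 from TZL replicates 1, 2 and 7, 2 from DLBCL replicates 4 and 9, and that of PTCL replicate 3) stood apart by an actin 3' control of 14.03 or more, against at most 12.5 on the other arrays. Where leaving them out ends a call of a member between subtypes, or between B and T over all dogs, this is stated. For genes outside the list of members, and for fits split by grade, this was not examined. Subtype and grade ran together in all but 1 dog, so that grade and subtype cannot be told apart within the B or the T cell tumours.

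Summed up as the mean log2 intensity of the 32 tested members, the interferon response genes had their highest mean in TZL and their lowest in LBT, and dogs with the same diagnosis differed widely. The mean score was 7.81 ± 0.64 (SD, n = 9) in TZL, 7.26 ± 1.69 (n = 5) in MZL, 6.72 ± 1.20 (n = 10) in DLBCL, 6.26 (n = 2) in BL, 5.74 ± 0.84 (n = 4) in PTCL and 4.99 ± 0.94 (n = 4) in LBT. In that order, MZL, DLBCL and BL lay within the spread of their neighbours, and PTCL and LBT overlapped each other, but every TZL dog lay above every PTCL and LBT dog. The 9 TZL dogs ran from 7.24 through a median of 7.63 to 9.10. The PTCL dogs were at 5.83, 5.84, 4.63 and 6.68 and the LBT dogs at 4.04, 4.31, 5.69 and 5.89. The 5 MZL dogs were at 4.88, 9.04, 6.20, 8.19 and 7.98, so that the group held both very high and very low dogs. The 10 DLBCL dogs ran from 3.92 through 7.01 to 7.74, and the lowest of them, DLBCL replicate 2, had the lowest score of any dog. The top rank of TZL over MZL rested on 1 dog: the difference of -0.56 between MZL and TZL became 0.04 without MZL replicate 1. No test was run on the score, because its members were chosen with results of these data known.

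**Figure D1:**
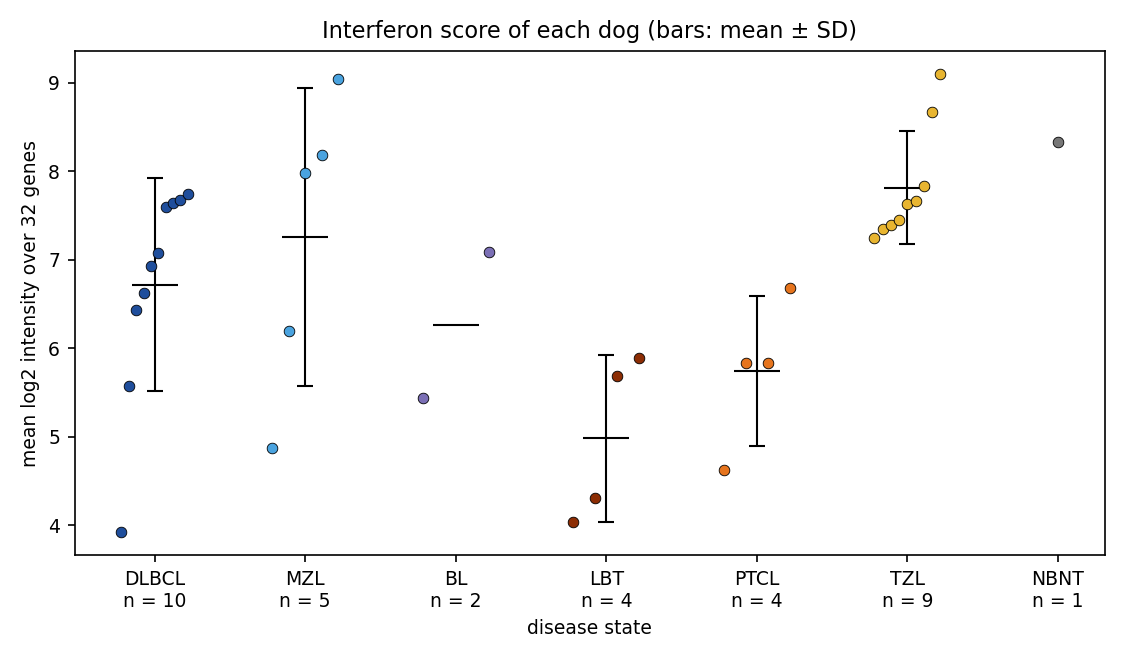
Interferon score of each dog (points, the mean log2 intensity of the 32 tested members, vertical axis) by disease state (horizontal axis), with the mean and, for groups of more than 2 dogs, the SD as bars; the untested NBNT dog is shown last. All 9 TZL dogs sit at 7.24 or above, all 8 LBT and PTCL dogs at 6.68 or below, and the MZL and DLBCL dogs spread from 3.92 to 9.04.

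Gene by gene, TZL had the highest subtype mean for 18 of the 32 members and MZL for 10, and LBT had the lowest mean for 25. Across the 6 subtypes, 23 of the 32 members differed in limma's moderated F test at an adjusted p under 0.05, and 56.8% of all genes tested did so. The share of members that differed between subtypes was thus not far above that of genes at large. Without the 6 arrays of the actin set, 21 members passed, and 20 of the 23 calls were kept. The members differed from genes at large in how much they varied within a diagnosis. Their SD around the subtype means had a median of 1.37 log2 units, against 0.57 over all genes tested, and 29 of the 32 lay above the upper quartile of all genes, 0.81.

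**Figure D2:**
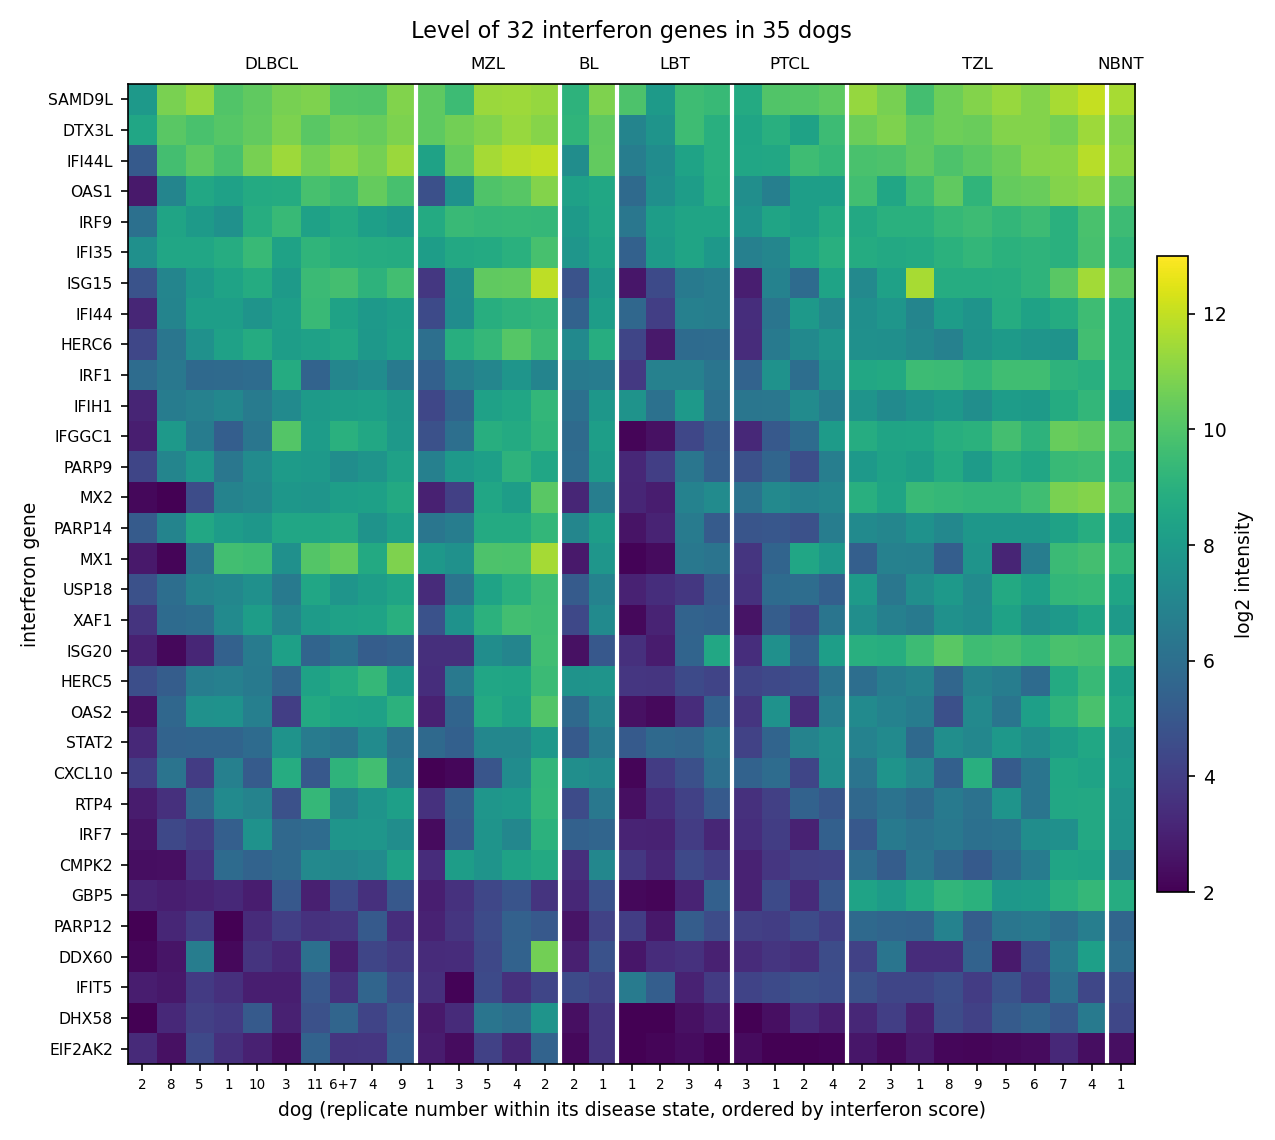
Log2 intensity (colour scale) of the 32 tested members (rows, from the brightest gene on average to the dimmest) in all 35 dogs (columns, grouped by disease state and ordered by interferon score within it). The TZL columns are bright and the LBT columns dark in most rows, GBP5 is bright in TZL and the NBNT dog alone, and DLBCL replicate 2, MZL replicate 1 and PTCL replicate 3, each the first column of its group, are darker than the rest of their groups in most rows.

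The gene that set TZL apart most cleanly was GBP5, a guanylate-binding GTPase that gamma interferon induces strongly. In TZL its log2 intensity ran from 7.87 through 8.67 to 9.31. In LBT it was 2.24, 2.15, 3.09 and 5.37, and in PTCL 4.48, 3.34, 3.03 and 4.93. The MZL dogs were at 2.93, 3.66, 3.56, 4.87 and 4.34, the DLBCL dogs between 2.88 and 5.02 with a median of 3.19, and the BL dogs at 4.75 and 3.22. GBP5 was the only member for which every TZL dog lay above all 25 other tested dogs, a pattern shown by 0.6% of all genes tested. The difference from TZL was -5.39 (SE 0.51) in LBT, -4.66 (SE 0.51) in PTCL and -4.73 (SE 0.48) in MZL, with adjusted p-values of 4.71e-09, 3.32e-07 and 1.82e-08 in limma's moderated test. When values under the minimum are raised to it, these are 19.2-fold, 19.1-fold and 20.6-fold. These 3 comparisons share the TZL dogs, and their values are therefore given side by side and not as independent results.

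PTCL and TZL are the T cell subtypes of mostly high and of low grade, and comparing them sets the grades side by side within mature T cell disease. In PTCL, 13 of the 32 members were lower than in TZL and none was higher, while 6.07% of all genes tested were lower and 7.6% higher. All 32 members had a difference below 0, with a median of -1.99 log2 units against 0.03 over all genes. Which dogs were used bore on the count. Without the 6 arrays of the actin set it was 5 (DTX3L, GBP5, IRF1, PARP12 and PARP9). The calls of PARP14, USP18, XAF1, ISG20, IFGGC1, IRF7, ISG15 and IFI35 were then lost. With all dogs kept and the actin set as a term in the fit, all 13 calls were kept. Without PTCL replicate 3, itself of that set, the count was 6, and without PTCL replicate 2 it was 8. A fit on the PTCL and TZL dogs alone gave 22. With sex, age and Golden Retriever as covariates, 11 members passed. Of the 13 calls, 10 were kept, and those of IRF7, ISG15 and IFI35 were lost. Among markers of other cells, 2 of 10 tested macrophage genes were higher in PTCL, CD14 by 2.93-fold and CD68 by 3.19-fold with dim values raised to the minimum. So were 1 of 3 tested neutrophil markers and 1 of 5 tested markers of stroma and endothelium. The summed intensity of the macrophage list was 5816 to 10263 in the PTCL dogs and 275 to 10760 in the TZL dogs, with 1 and 3 of its 12 genes below the minimum in every dog of the group. The part of these cells in the result was not tested.

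In LBT, 25 of the 32 members were lower than in TZL and none was higher, against 12.4% of all genes lower and 17.8% higher. With sex, age and Golden Retriever as covariates, 20 of these calls were kept, and those of HERC5, RTP4, STAT2, IFI44 and CMPK2 were lost. The members' median difference was -2.78 log2 units and that of all genes was 0.05. Read from the brightest probe set of each gene, the 7 members that did not pass were CXCL10, OAS1, DDX60, MX1, IFIH1, EIF2AK2 and IFIT5. The LBT tissues also held less signal from some other cell types: 4 of 5 B cell markers and 3 of 6 NK and cytotoxic markers were lower than in TZL. Of 10 tested macrophage markers, 1 was lower and 1 was higher, and the list's median difference was -1.04 log2 units. The higher one was CD14, by 1.67-fold with dim values raised to the minimum. The B cell adaptor BLNK, which stands in both the B cell and the plasmacytoid dendritic cell lists, was the only 1 of 2 tested genes of the latter that was lower. The summed intensity of the B cell list was 33.6 to 2014 in the LBT dogs and 347 to 3574 in the TZL dogs, with 1 of its 6 genes below the minimum in every dog of both groups. That of the NK and cytotoxic list was 56.2 to 1470 in LBT and 103 to 3548 in TZL, with 4 and 2 of its 8 genes below the minimum throughout. The part of these cells in the members' difference was not tested.

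**Figure D3:**
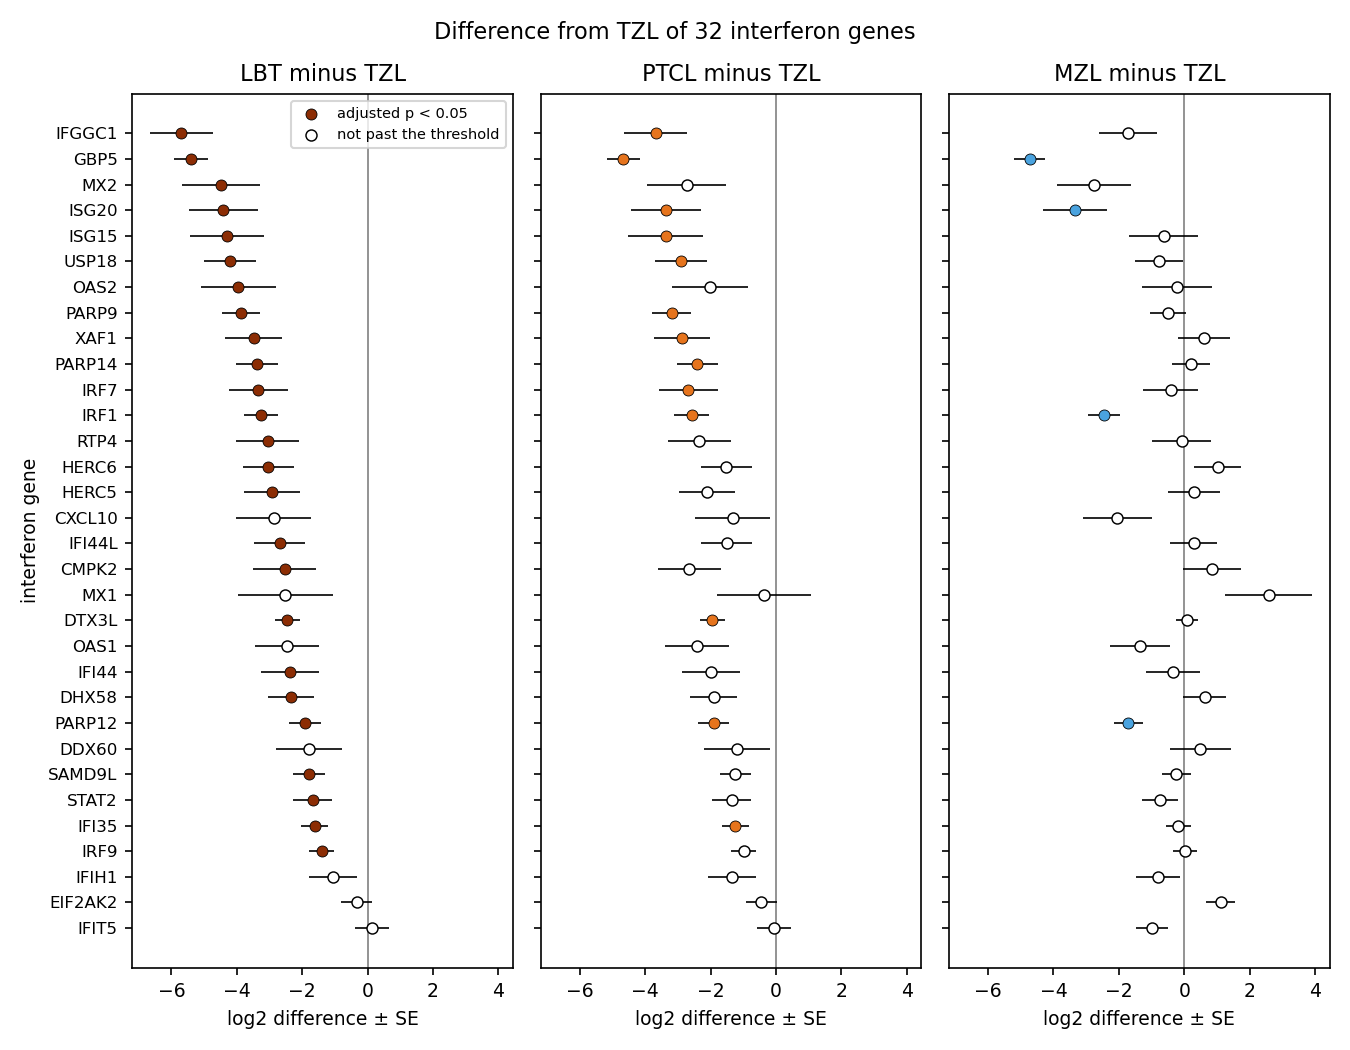
Difference in log2 intensity from TZL (horizontal axes, points with the standard error as bars) for each of the 32 tested members (rows, ordered by the LBT difference) in LBT, PTCL and MZL; filled points have an adjusted p under 0.05 in limma's test. All points but IFIT5 lie below 0 in LBT and all do in PTCL, with GBP5 at -5.39 and -4.66, while in MZL only GBP5 at -4.73, ISG20, IRF1 and PARP12 are filled.

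The poly(ADP-ribose) polymerase members with DTX3L formed the only role group in which every member passed both in PTCL and in LBT. PARP9 and DTX3L are partners in a complex that binds ADP-ribose and attaches ubiquitin, and PARP12 and PARP14 are antiviral members of the same enzyme family. All 4 were lower in PTCL and in LBT than in TZL. PARP9 ran from 7.93 through 8.51 to 9.55 in TZL and was 5.58, 4.63, 4.74 and 6.70 in PTCL and 3.24, 4.02, 6.31 and 5.35 in LBT. Neither group overlapped TZL. The differences were -3.19 (SE 0.58, adjusted p = 0.000391) and -3.88 (SE 0.58, adjusted p = 9.97e-06) in limma's test. DTX3L, which had the smallest SD within subtypes of all tested members (0.64), was likewise apart from TZL, at -1.94 (SE 0.37) in PTCL and -2.46 (SE 0.37) in LBT. TZL held 10.26 to 11.40 for it, PTCL 8.93, 8.33, 8.45 and 9.53, and LBT 6.95, 7.71, 9.57 and 8.95. PARP14 ran from 7.03 through 7.81 to 8.85 in TZL, and was 5.00, 4.75, 4.91 and 6.68 in PTCL and 2.56, 3.11, 6.58 and 5.17 in LBT. Its means in the B cell subtypes, 7.82 in DLBCL, 7.94 in MZL and 7.57 in BL, were near that of TZL, 7.74. Those of PTCL and LBT were 5.33 and 4.36. Single B cell dogs went the other way: DLBCL replicate 2 (5.17) and MZL replicates 1 and 3 (6.32 and 6.68) lay within the PTCL range. PARP12 followed another course. It was 5.25 to 6.87 in TZL, with a median of 6.04, and averaged 4.14 in LBT, 4.15 in PTCL, 4.35 in MZL and 3.42 in DLBCL, so that TZL stood above the B cell subtypes as well. In all, 2 dogs outside TZL, the higher of them MZL replicate 4 at 5.42, exceeded the lowest TZL dog.

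Among the transcription factors, IRF1, an activator downstream of gamma interferon, was also high throughout TZL. It ran from 8.61 through 9.25 to 9.63 in TZL, and a single other tested dog, DLBCL replicate 3 at 8.78, exceeded the lowest of these. PTCL held 7.59, 5.95, 5.52 and 7.46, LBT 3.83, 6.84, 6.83 and 6.28, and MZL 5.37, 6.97, 6.69, 7.75 and 7.03. The differences from TZL were -2.58 (SE 0.52, adjusted p = 0.00104), -3.27 (SE 0.52, adjusted p = 2.26e-05) and -2.45 (SE 0.49, adjusted p = 0.000363) in limma's test. IRF7, the factor that amplifies type I interferon production, was below the minimum in every LBT dog (3.10, 3.04, 3.95 and 3.19) and ran from 5.04 through 6.42 to 8.62 in TZL. TZL was therefore at least 6.32-fold higher than LBT (adjusted p = 0.00561). The PTCL dogs held 4.02, 3.05, 3.44 and 5.38 for it, which overlapped TZL in PTCL replicate 4 (adjusted p = 0.0448, and 0.129 without the actin set). IRF9 and STAT2, the DNA-binding and the activating part of the type I complex, were lower in LBT by smaller amounts, at -1.40 (SE 0.39, adjusted p = 0.00685) and -1.68 (SE 0.60, adjusted p = 0.034). In PTCL they were at -0.99 and -1.36 and did not pass. Without LBT replicate 1, whose IRF9 value of 6.37 lay well under the 8.10, 8.41 and 8.44 of the other LBT dogs, neither IRF9 nor STAT2 passed in LBT (adjusted p = 0.0882 and 0.113). The STAT2 call was also lost without LBT replicate 2, LBT replicate 3, TZL replicate 4 or TZL replicate 7. It was lost with no filter and with sex, age and Golden Retriever as covariates too. The IRF9 call was lost in no other alternative.

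The ISG15 system attaches a small ubiquitin-like protein to other proteins during an interferon response: ISG15 is the modifier, HERC5 and HERC6 belong to the ligases that attach it, and USP18 removes it and dampens the type I receptor. All 4 were lower in LBT than in TZL, by 2.93 to 4.30 log2 units, and ISG15 and USP18 were also lower in PTCL. USP18 was 6.36 to 9.39 in TZL with a median of 8.00, and 3.06, 3.44, 3.77 and 5.16 in LBT and 5.86, 5.92, 3.58 and 5.32 in PTCL, with no overlap in either case. The difference was -4.21 (SE 0.80, adjusted p = 0.000172) in LBT and -2.90 (SE 0.80, adjusted p = 0.0132, and 0.149 without the actin set) in PTCL. ISG15 was more variable. It ran from 7.19 through 8.85 to 11.57 in TZL and was 6.87, 5.84, 2.92 and 8.39 in PTCL, where its call was near the threshold (-3.37, SE 1.14, adjusted p = 0.045, and 0.33 without the actin set). In the MZL dogs ISG15 spanned 3.78, 11.89, 7.39, 10.37 and 10.32. HERC5 and HERC6, neighbouring genes in the dog assembly UU_Cfam_GSD_1.0, were at 7.69 and 8.04 in BL, 7.28 and 8.76 in MZL and 4.04 and 4.70 in LBT (means).

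The antiviral effectors were mixed. Of these 9 members, 5 were lower in LBT and 1 in PTCL. MX2, a dynamin-like GTPase that blocks virus entry into the nucleus, ran from 8.44 through 9.32 to 10.94 in TZL and was 3.20, 2.87, 6.88 and 7.33 in LBT (-4.48, SE 1.21, adjusted p = 0.00532). Its PTCL values of 7.16, 6.89, 6.21 and 7.06 also lay under every TZL dog, but the difference of -2.72 (SE 1.21) did not pass (adjusted p = 0.138). Its neighbour MX1, the related GTPase of the cytoplasm, did not follow this order. It ran from 3.15 through 6.81 to 9.71 in TZL, which overlapped every other group, and its highest mean was in MZL (7.87, 11.53, 7.58, 9.89 and 9.92). The MZL difference from TZL was 2.58 (SE 1.34, adjusted p = 0.152). MX1 had the largest SD within subtypes of all members, 2.52. ISG20, an exonuclease that degrades RNA, ran from 8.86 through 9.57 to 10.17 in TZL. It lay under that range in every other tested dog except MZL replicate 2, at 9.63. Its differences were -4.41 (SE 1.07) in LBT, -3.37 (SE 1.07) in PTCL and -3.34 (SE 0.99) in MZL, with adjusted p-values of 0.00218, 0.0321 and 0.0117. The PTCL call was lost without the actin set (adjusted p = 0.26), and the MZL call without MZL replicate 1 or MZL replicate 3.

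OAS1 and OAS2 make the oligoadenylate that switches on the RNA-cleaving enzyme RNase L. OAS2 was 2.51, 2.28, 3.41 and 5.37 in LBT against 4.70 to 9.86 in TZL, a difference of -3.96 (SE 1.15, adjusted p = 0.00943). OAS1 stayed high even there, at 5.81, 7.49, 8.12 and 8.88, and its brightest probe set did not pass (-2.45, SE 0.98, adjusted p = 0.0575). Its further probe sets above the filter were at -2.73, -2.82 and -2.74. They passed in a limma fit over probe sets (adjusted p = 0.025, 0.018 and 0.0309), so the OAS1 result depended on the probe set. SAMD9L, a cytoplasmic restriction factor, was among the brightest members in every group, from a mean of 9.23 in LBT to 11.01 in TZL, and passed in LBT (-1.78, SE 0.48, adjusted p = 0.00559). CMPK2, a mitochondrial nucleotide kinase, also passed in LBT (-2.54, SE 0.96), at an adjusted p of 0.0441 (0.0904 without the actin set). EIF2AK2, the RNA-activated kinase PKR, was close to background: it lay below the minimum in every T cell dog and at a mean of 3.74 in DLBCL and 3.59 in MZL. IFIT5, which binds the ends of foreign RNA, was dim too, with means from 3.58 in MZL to 4.70 in LBT, and was the only member with a higher mean in LBT than in TZL (0.13, SE 0.52, adjusted p = 0.879).

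The sensors detect foreign RNA in the cytoplasm, and the 3 tested here, IFIH1 (MDA5), DHX58 (LGP2) and DDX60, had the smallest median differences of any role group, -1.34 in PTCL and -1.80 in LBT. None passed in PTCL and only DHX58 did in LBT, where every dog (1.61, 1.97, 2.48 and 2.90) was below the minimum (adjusted p = 0.0127). With values under the minimum raised to it, TZL was 1.71-fold higher for DHX58 and the call was lost (adjusted p = 0.243). IFIH1 was well expressed throughout, with subtype means from 6.66 in PTCL to 7.99 in TZL, and differed between no pair of subtypes compared. DDX60 was near the minimum in most dogs. Its MZL mean of 5.46 came from MZL replicate 2 at 10.67, beside 3.35, 3.41, 5.47 and 4.41 in the other MZL dogs.

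The 5 other induced proteins all passed in LBT. XAF1, which promotes cell death, ran from 6.54 through 7.54 to 8.41 in TZL and was 2.25, 3.11, 5.51 and 5.37 in LBT and 5.25, 4.54, 2.59 and 6.27 in PTCL. Both groups lay wholly under TZL, at -3.49 (SE 0.86, adjusted p = 0.00258) and -2.88 (SE 0.86, adjusted p = 0.0227, and 0.165 without the actin set). IFI44L, of unsettled function, was bright in all groups (7.83 in LBT to 10.80 in MZL as means) and was -2.69 (SE 0.78, adjusted p = 0.00921) in LBT. RTP4, a chaperone of membrane receptors, was at -3.05 (SE 0.96, adjusted p = 0.0164) there, IFI35 at -1.62 (SE 0.41) and IFI44 at -2.37 (SE 0.89). A further IFI44 probe set was at -1.83 and did not pass in a limma fit over probe sets (adjusted p = 0.129). Without LBT replicate 1, IFI35, IFI44, IFI44L and RTP4 no longer passed, and XAF1 did.

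Besides GBP5, the group linked here with gamma interferon held CXCL10, a chemokine that draws activated T cells, and the gene that the platform lists as IFGGC1. IFGGC1 ran from 8.44 through 9.04 to 10.42 in TZL, and was 2.16, 2.49, 4.33 and 5.18 in LBT and 5.09, 5.84, 3.28 and 8.06 in PTCL. Neither overlapped TZL, with differences of -5.70 (SE 0.97, adjusted p = 4.74e-05) and -3.67 (SE 0.97, adjusted p = 0.00993, and 0.132 without the actin set). Its MZL and DLBCL dogs, at means of 7.52 and 7.27, were closer to TZL and overlapped it. CXCL10 did not pass anywhere among the pairs of subtypes. It was 2.16, 3.94, 4.68 and 6.02 in LBT and 5.17 to 8.94 in TZL, and its highest mean, 7.35, was in BL.

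**Figure D4:**
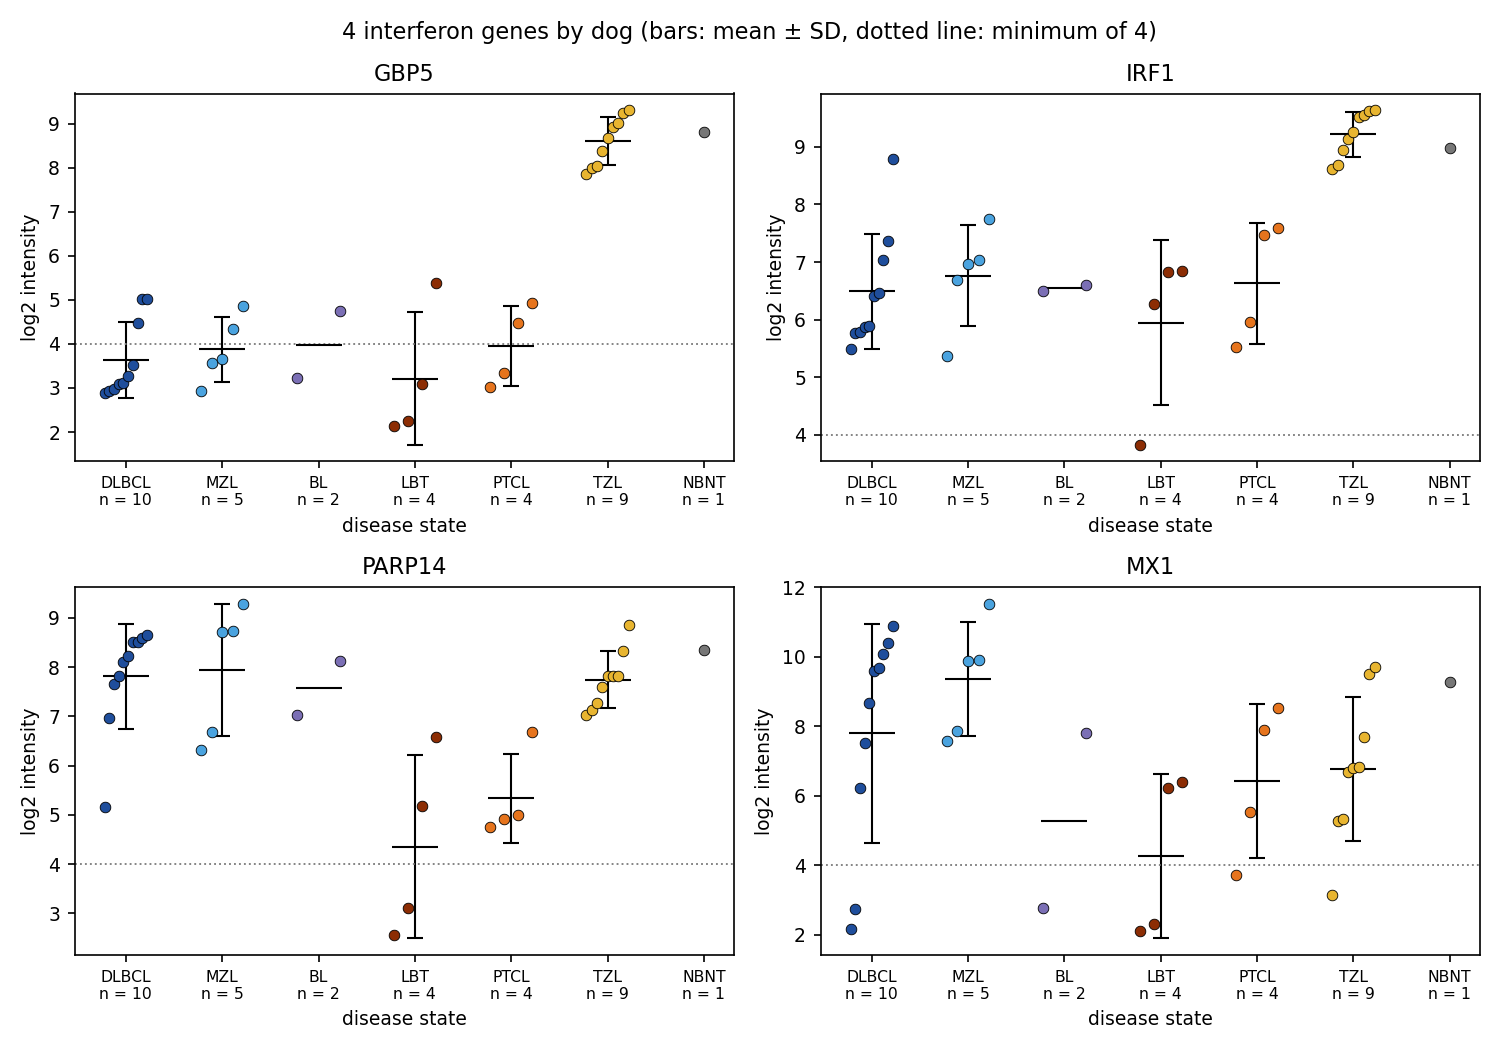
Log2 intensity (vertical axes) of GBP5, IRF1, PARP14 and MX1 in each dog (points) by disease state, with the mean and, for groups of more than 2 dogs, the SD as bars, and the minimum of 4 as a dotted line. GBP5 is at 7.87 or above in all 9 TZL dogs, at 8.82 in the untested NBNT dog and at most 5.37 elsewhere, IRF1 has its highest mean in TZL, PARP14 has its lowest means in LBT and PTCL, and MX1 overlaps across the subtypes.

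Counted over dogs, every TZL dog lay above every LBT dog for 21 of the 32 members (5.97% of all genes tested), and above every PTCL dog for 15 (3.35%). For 13 members it lay above both (1.76%). Against MZL, the low-grade B cell subtype, this held for 2 members, IRF1 and GBP5, and for 7.05% of all genes. The reverse, every MZL dog above every TZL dog, held for 0 members (7.01% of all genes), and every LBT dog lay below every other tested dog for 0 members (0.12%).

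MZL and TZL are both low grade, so that comparing them sets B against T within that grade. Of the 32 members, 4 were lower in MZL (GBP5, IRF1, PARP12 and ISG20) and none was higher, against 12.3% and 15.2% of all genes. The share that was lower was near the background. The median difference over the members was -0.30 log2 units, against 0.08 over all genes. The members lower in LBT than in TZL were not alike in MZL. DTX3L differed from TZL by 0.08 (SE 0.35) there, PARP14 by 0.20 (SE 0.59) and RTP4 by -0.08 (SE 0.89), whereas MX2 was at -2.76 (SE 1.12, adjusted p = 0.0648) and IFGGC1 at -1.72 (SE 0.90, adjusted p = 0.154). The T cell markers were lower in MZL for 7 of 7 genes and the B cell markers higher for 4 of 5.

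Between the B cell subtypes no member passed. For DLBCL against MZL limma called 0 members, as it called 0 of the 7500 genes (0%), and 2 members were under an unadjusted p of 0.05, IRF9 at -1.10 (SE 0.36) and PARP12 at -0.93 (SE 0.44). With array weights, 2 members were lower in DLBCL. The DLBCL dogs held 6.07 to 9.40 for IRF9, with a median of 8.24, and the MZL dogs 8.74, 9.34, 9.45, 9.38 and 9.34, so that the groups overlapped. For BL against DLBCL 0 members passed (0.0133% of all genes higher, 0.0133% lower, 0.0267% together) and 0 were under an unadjusted p of 0.05, with only 2 BL dogs. For LBT against PTCL 0 passed (0.68%) and 0 were under that unadjusted p, although 28 of the 32 differences were below 0 and IFGGC1 stood at -2.03 (SE 1.14). With 4 dogs in each group, the standard errors of members such as MX1 (1.70) and MX2 (1.42) leave room for differences of several fold.

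The design crosses lineage with grade, and the difference between the 2 grade steps (DLBCL less MZL in B cell tumours, and PTCL less TZL in T cell tumours) was tested directly. GBP5 alone among the 32 members passed, at 4.42 log2 units (SE 0.69, adjusted p = 0.000485), and 0.747% of all genes passed in that direction (1.96% in either). GBP5 differed by -0.24 (SE 0.47) between DLBCL and MZL and by -4.66 between PTCL and TZL. IRF1 was next, at 2.31 (SE 0.71, adjusted p = 0.088), and PARP9 followed at 2.31 (SE 0.79, adjusted p = 0.14). Without LBT replicate 1, DLBCL replicate 2 or PTCL replicate 4 in turn, 2 members passed.

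With all dogs of a phenotype together (17 B and 17 T), 4 members were higher in B cell tumours and 5 lower, against 24.2% and 22.3% of all genes (46.5% together). Both shares were below the background. EIF2AK2 was called higher (adjusted p = 0.000151) but lay below the minimum in all 17 T dogs and reached it in 5 of 17 B dogs. Once values under the minimum were raised to it, the ratio was 1.22-fold and no longer passed (adjusted p = 0.094). PARP14 was higher by 1.45 (SE 0.49), HERC6 by 1.35 (SE 0.53) and HERC5 by 1.37 (SE 0.56). GBP5 was lower by 2.50 (SE 0.67), ISG20 by 2.43 (SE 0.76), PARP12 by 1.47 (SE 0.36), IRF1 by 1.26 (SE 0.45) and IFIT5 by 0.82 (SE 0.29). When the fit also took in 2 measures of RNA quality, how much brighter the 3' than the 5' end of actin and GAPDH read, 3 of the 9 calls were kept (EIF2AK2, GBP5 and PARP12). Without the actin set 6 were kept, and HERC5, HERC6 and IRF1 were lost. With all dogs kept and the actin set as a term in the fit, all 9 were kept.

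This comparison changed with the grades that entered it. Among high-grade dogs alone (12 B and 7 T), 16 members were higher in B cell tumours and 0 lower, against 16% and 17.4% of all genes. They were led by PARP14 at 3.19 (SE 0.51, adjusted p = 6.79e-05), HERC5 at 2.90 (SE 0.53, adjusted p = 0.000281), DTX3L at 1.70 (SE 0.34), USP18 at 2.56 (SE 0.54) and PARP9 at 2.34 (SE 0.50). The 16 include EIF2AK2 and DHX58, which lay below the minimum in every high-grade T dog. Among low-grade dogs alone (5 B and 9 T), 1 member was higher (EIF2AK2, below the minimum in every TZL dog, and 1.25-fold higher in MZL once values are raised to the minimum) and 5 were lower, GBP5, IRF1, PARP12, ISG20 and MX2, against 19.1% and 15.2% of all genes. These are the MZL and TZL dogs compared above, with the same differences. In the limma fit above, which shares 1 spread over all subtypes, MX2 and EIF2AK2 did not pass (adjusted p = 0.0648 and 0.0574). Without the TZL dogs (17 B and 8 T), an alternative chosen after seeing the data, 17 members were higher and 0 lower (17.4% and 18.8%). GBP5 and IRF1, lower in B cell tumours over all dogs, were at 0.30 and 0.38 among high-grade dogs and at 0.17 and 0.29 without TZL. They passed in neither of these fits. Of the members' differences between grade steps, only that of GBP5 passed, as given above, and the high-grade and low-grade fits share no dogs but were not otherwise compared.

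**Figure D5:**
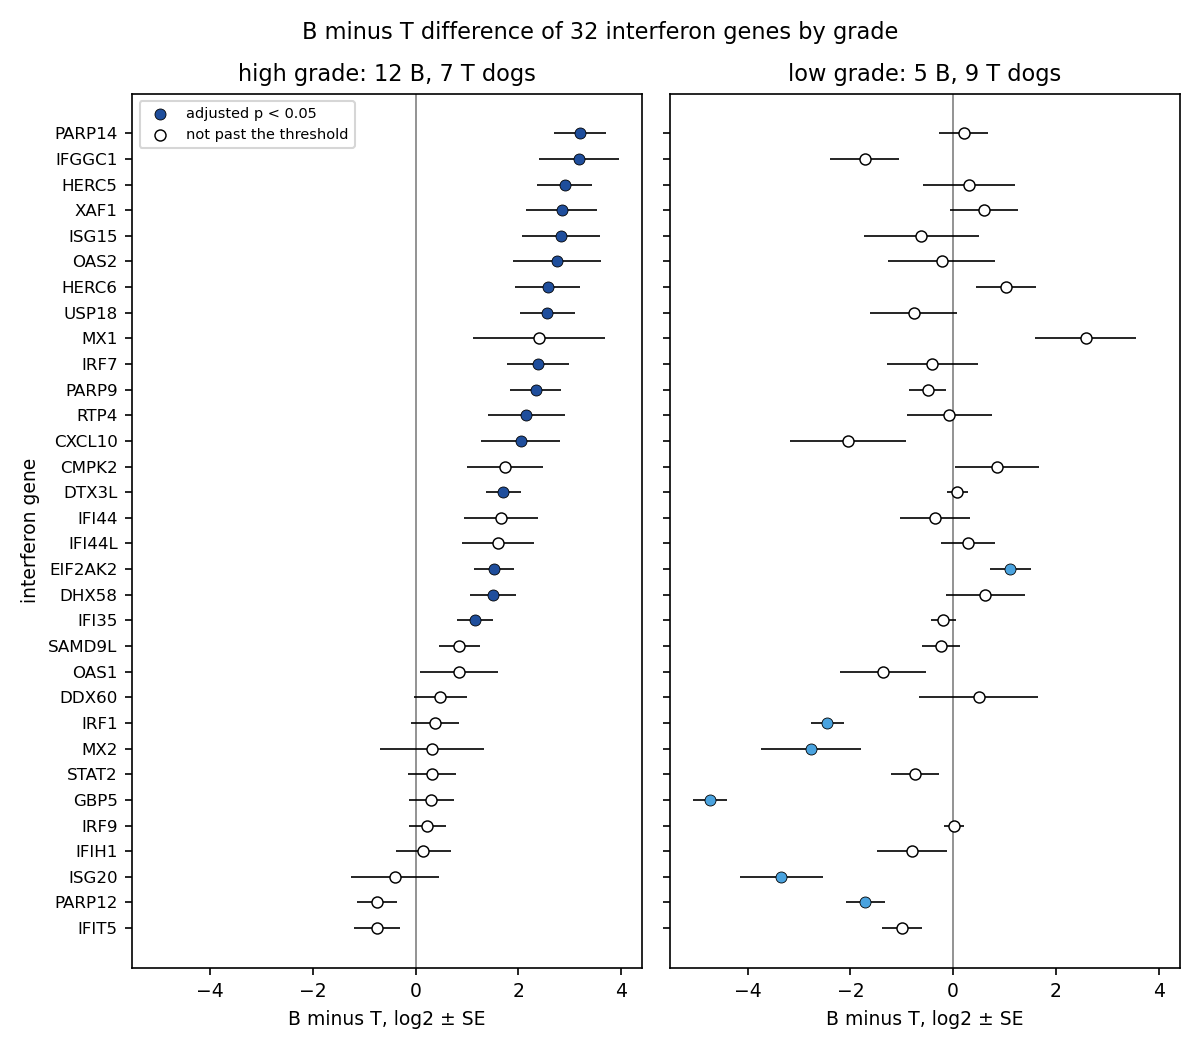
B less T difference in log2 intensity (horizontal axes, points with the standard error as bars) for each of the 32 tested members (rows) among high-grade dogs (12 B, 7 T) and among low-grade dogs (5 B, 9 T); filled points have an adjusted p under 0.05 in limma's test. Most members lie above 0 among high-grade dogs, PARP14 at 3.19 among them, while GBP5 is at 0.30 there and -4.73 among low-grade dogs.

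Within a diagnosis, the members rose and fell together from dog to dog. Over the 34 tested dogs, after each gene's subtype mean was taken off, the median Pearson correlation over the 496 pairs of members was 0.62 (from -0.29 to 0.92), and 72.0% of pairs were above 0.5. Over all genes tested the median was 0.02 and 2.97% of pairs were above 0.5. These correlations are descriptions over dogs whose arrays share all genes. XAF1 and MX2 followed the mean of the other members most closely (r = 0.93 and 0.91). IFIT5 (0.25), IRF1 (0.43) and EIF2AK2 (0.51) followed it least. The SD within subtypes was 0.90 log2 units for IRF1 and 0.88 for GBP5, both above the upper quartile of all genes, and 1.98 to 2.52 for MX1, MX2, OAS2, CXCL10 and ISG15.

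Some dogs were at the edge of their group for most members. TZL replicate 4 was the highest of its group for 23 of the 32 members (7.57% of all genes), and MZL replicate 2 for 22 (23.9%). DLBCL replicate 2 was the lowest of its group for 23 members (14.6%), MZL replicate 1 for 26 (24.8%) and PTCL replicate 3 for 23 (30.1%). PTCL replicate 4, the dog of intermediate grade, was the highest of its group for 18 members (29.3%). LBT replicate 1 was the lowest for 19 (29.1%). Within the actin set the TZL mean score was 7.77 (3 dogs) against 7.84 in the other 6 TZL dogs, and the DLBCL mean was 7.71 (2 dogs) against 6.47. PTCL replicate 3, the only PTCL dog of the set, had a score of 4.63 against a mean of 6.12 in the other 3.

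The genes outside the list whose values went most with the interferon score were ranked by the same correlation over the 34 dogs among 7468 genes. EPSTI1 was first (r = 0.87, rho = 0.87), followed by LGALS9 (0.86), TDRD7 (0.82), LOC488947 (0.82), UBE2L6 (0.80), TNFSF10 (0.74), PSMF1 (0.73) and MYD88 (0.73). LGALS9 is a galectin, UBE2L6 is the conjugating enzyme for ISG15, TNFSF10 is the death ligand TRAIL and MYD88 is an adaptor of Toll-like receptors. With the 2 dogs farthest from the median score left out (DLBCL replicate 2 and MZL replicate 1), EPSTI1 was at 0.82, LGALS9 at 0.77 and MYD88 at 0.53. The median over all other genes was 0.055. Of 20 other interferon-induced genes listed and tested, 9 had r above 0.5, as had 0.937% of all other genes. The marker lists of other cells went with the score less closely, at 0.31 for T cells, 0.29 for B cells, 0.34 for macrophages, 0.34 for NK and cytotoxic cells and 0.43 for stroma and endothelium.

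Upstream of the members, the receptors and ligands were measured only in part. IFNGR1, the ligand-binding chain of the gamma interferon receptor, ran from 9.03 through 9.50 to 10.44 in TZL. It was lower than in TZL by 1.66 (SE 0.36) in PTCL, by 2.49 (SE 0.36) in LBT and by 2.16 (SE 0.34) in MZL, with adjusted p-values of 0.00223, 6.36e-06 and 1.83e-05. It passed for the difference between grade steps too, at 2.04 (SE 0.49, adjusted p = 0.0237). It was the only gene of 5 tested ligands and receptors to pass in each of these 4 comparisons. IFNG, the gene of gamma interferon itself, was near the minimum, with subtype means from 2.25 in LBT to 3.60 in TZL, and passed nowhere. Of 12 tested genes of signal transduction, 4 were lower in LBT than in TZL (12.4% of all genes) and 0 higher (17.8%). They included STAT4 at -3.66 (SE 0.57) and IRF5, which was below the minimum in every LBT dog and at least 4.4-fold higher in TZL. In PTCL 1 was lower (6.07% of all genes), STAT4 at -2.03 (SE 0.57), and 0 were higher (7.6%), so that the PTCL count was near the background. Of 10 genes that act in nucleic acid sensing upstream of interferon, 0 passed in LBT or PTCL, against 30.1% and 13.7% of all genes in either direction.

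Of 20 tested interferon-induced genes outside the list, 8 were lower in LBT than in TZL (12.4% of all genes) and 6 in PTCL (6.07%), and none was higher (17.8% and 7.6%). PSMB8, a subunit of the immunoproteasome, was at -1.69 (SE 0.27, adjusted p = 2.06e-05) in LBT and -1.36 (SE 0.27, adjusted p = 0.000817) in PTCL. PLSCR1, a scramblase with antiviral activity, was at -3.26 (SE 0.66) and -3.01 (SE 0.66). TRIM21, an antibody receptor of the cytosol, was at -1.47 (SE 0.34) and -1.65 (SE 0.34). In MZL 5 of the 20 were lower than in TZL (12.3% of all genes) and 2 were higher (15.2%), and EPSTI1 stood at 0.67 (SE 0.46, adjusted p = 0.294).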

How the data were processed

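Tumour RNA from 35 dogs was measured on 36 Affymetrix canine arrays. The deposited values are linear intensities; the submitters' processing notes name GCRMA, with no version, as the authors' method of background correction and normalization, which can compress differences between dim probe sets. A floor of 1 was set here before log2 was taken. Each gene was read from its brightest probe set (by mean over arrays) among those paired with 1 symbol. For 12 members, 21 further probe sets passed the filter, with r of 0.84 to 0.98 to the chosen one. Genes reaching log2 4 (an intensity of 16) in 4 or more of 34 dogs were tested with limma 3.58.1 in R 4.3.3 (lmFit and eBayes on 6 subtype means, and a fit on 2 phenotype means for B against T), with p-values adjusted by Benjamini-Hochberg over all 7500 genes and called under 0.05. The NBNT dog entered no test. P-values measure the spread between dogs, and the number of arrays limits the precision. The scripts were tested on simulated data. The members and the 11 gene lists beside them were chosen with earlier results of these data known. Members were named by role, with values for those past the threshold and for members of the same role. Replicate numbers follow the order of the samples and only name dogs. Alternatives covered the filter, the minimum, normalization, probe set choice, variance model, array weights, covariates, the actin set, grade and each dog left out.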

Additional observations from a re-analysis of the deposited data

Results flagged for a closer look

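Of 165 groups examined (32 members and the score in 5 subtypes with 4 to 10 dogs), 19 were flagged. A flag means that a dog lay farther from the rest of its group than Dixon's critical value, and chance gives about 1 in 20 such groups. The members rise and fall together, so the groups are not independent and 1 dog can account for several of the 19 flags. DLBCL replicate 2 was the lowest dog in 9 of them: IFI44 at 3.18 (next dog 6.96), IFI44L at 5.13 (9.73), IFIH1 at 3.15 (6.6), OAS1 at 2.74 (6.99), STAT2 at 3.29 (5.5), PARP9 at 4.3 (6.37), PARP14 at 5.17 (6.96), DTX3L at 8.5 (9.83) and SAMD9L at 7.92 (10.02). The other low dogs were MZL replicate 1 for IRF9 at 8.74 (9.34) and for CMPK2 at 3.39 (7.68), LBT replicate 1 for IRF9 at 6.37 (8.1), and PTCL replicate 3 for SAMD9L at 8.74 (10.03). The high dogs were LBT replicate 3 for IRF7 at 3.95 (3.19, both below the minimum), TZL replicate 4 for HERC6 at 9.67 (7.99), TZL replicate 7 for IFIT5 at 6.07 (4.78), MZL replicate 2 for DDX60 at 10.67 (5.47), PTCL replicate 2 for PARP12 at 4.53 (4.06) and PTCL replicate 4 for PARP14 at 6.68 (5).

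The grade step differed between B and T cell tumours for GBP5, by 4.42 log2 units (SE 0.69, adjusted p = 0.000485 in limma's test of the difference), and for the receptor gene IFNGR1, by 2.04 (SE 0.49, adjusted p = 0.0237).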

How the results depend on the processing

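No paired analysis was possible because the replicate numbers follow the order of the samples and each dog is a sample of its own. Besides leaving out each of 34 dogs in turn, 18 alternatives were run. For PTCL against TZL the count of members called (13) was 8 with array weights, 5 without the actin set, 22 in a fit on the compared groups only, and 6 to 17 with 1 dog left out. It was 13 with the actin set as a term in the fit, and 11 with sex, age and Golden Retriever as covariates. B against T (9) gave 6 without the actin set, 3 with the actin and GAPDH differences as covariates, 16 among high-grade dogs, 17 without TZL dogs (chosen after seeing the data) and 7 to 11 with 1 dog left out. It gave 9 with the actin set as a term in the fit. The score difference between B and T was 0.16, and ran from -0.001 without LBT replicate 1 to 0.34 without DLBCL replicate 2, so that 1 dog ended its sign; it was 1.47 among high-grade dogs and 1.46 without TZL. The B less T difference was no longer below 0 for GBP5, at 0.30 (SE 0.44) among high-grade dogs and 0.17 (SE 0.39) without TZL. For IRF1 it was 0.38 (SE 0.46) and 0.29 (SE 0.41). None of these passed, and each lay within its SE of 0. The difference between grade steps (1) gave 2 with the control covariates and 1 to 2 with 1 dog left out. DLBCL against MZL (0) gave 2 with array weights and 0 in every run with a dog left out. With 1 dog left out, LBT against TZL (25) ran from 17 to 27, MZL against TZL (4) from 4 to 6, and any subtype (23) from 20 to 28. With sex, age and Golden Retriever as covariates, LBT against TZL gave 20. For most of these alternatives the share of all genes called is not set beside the count. A shift of the members therefore cannot be told apart here from a shift of genes at large. The cause of these shifts was not tested. Small groups, and members near the minimum such as EIF2AK2 and IFIT5, limit what could be called.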

Other observations

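The NBNT dog, which belonged to neither phenotype, had an interferon score of 8.33, and all 32 tested members lay inside the range of the 9 TZL dogs, as did 89.4% of all genes tested. Its GBP5 value was 8.82. Its members lay inside the range of the MZL dogs for 24 of 32 (54.3% of all genes), of the DLBCL dogs for 19 (70.6%), and of the LBT and PTCL dogs for 1 each (49.7% and 63.6%), with 31 above the range in each of the last 2 groups. This is 1 dog, and groups with more dogs have wider ranges.

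Several members are neighbours in the dog assembly UU_Cfam_GSD_1.0, and 4 such pairs had both genes tested. After subtype means were taken off, the correlation over the 34 dogs was 0.90 for PARP9 and DTX3L, 0.86 for IFI44 and IFI44L, 0.83 for MX2 and MX1 and 0.67 for HERC5 and HERC6, against a median of 0.62 over all pairs of members.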
